A study of Mus musculus with 6 samples.

Results

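The genes described here encode antibodies: the immunoglobulin constant, variable (V), diversity (D) and joining (J) segments of the mouse, together with Jchain, whose product links IgM and IgA into polymers. Members were the genes of the deposited table whose identifier carries an immunoglobulin biotype in the GRCm38 annotation, plus Jchain, and 265 of the 22298 genes in the table met that rule. They comprised 113 heavy chain V genes, 102 kappa V genes, 3 lambda V genes, 8 heavy chain constant genes, Igkc as the kappa constant gene, 4 lambda constant genes, 19 D segments, 14 J segments and Jchain. Poly(A)-selected RNA was measured in hearts of female mice of WT genotype aged 18 months, of which 3 had undergone a sham operation and 3 TAC. TAC normally stands, in heart research, for transverse aortic constriction, in which a band around the aorta raises the pressure against which the left ventricle pumps. The strain, the interval after surgery and any rinsing of blood from the hearts are not stated in the labels. The titles number the 3 hearts of a group, and each was taken as a separate animal, though the labels do not describe the animals further. With so few libraries, p-values rest on how far these spread, part of which may be technical.

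A B cell builds its antibody by joining V, D and J segments, and each B cell clone therefore carries its own pair of heavy and light chain V genes. Naive B cells carry IgM and IgD on their surface, made from the same transcript by splicing. After activation a B cell can switch to IgG, IgE or IgA by placing another constant gene behind the same V segment, and plasma cells, the secreting end stage, hold very large amounts of immunoglobulin RNA. The healthy heart holds B cells in its vessels and tissue in small numbers.

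The members lie in 3 loci of GRCm38 and at the Jchain gene. The heavy chain locus spans chr12:113254830-116000461 with 144 members, the kappa locus chr6:67555497-70726966 with 108 members, and the lambda locus chr16:19061618-19260859 with 12 members. Jchain lies at chr5:88519809-88527891 on the minus strand.

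The V genes that took the most counts differed between the libraries, and the end of the V segment is shown for those on which the description of V gene use rests. Each line gives the last 60 bases of the annotated coding transcript (GENCODE, GRCm38), 5′ to 3′, in lower case, and the capitals mark the codon of the conserved cysteine that precedes the third complementarity-determining region. The bases after the capitals are the germline start of that region, which in a mature antibody gene are followed by D or J sequence. The kappa V genes come first, each the most abundant kappa V gene of at least 1 library except for Igkv1-110, a near copy of Igkv1-117, and Igkv14-126. The heavy chain V genes follow.
Igkv1-117: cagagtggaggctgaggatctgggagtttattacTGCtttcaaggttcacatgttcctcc
Igkv1-110: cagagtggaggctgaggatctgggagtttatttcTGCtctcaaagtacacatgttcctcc
Igkv1-135: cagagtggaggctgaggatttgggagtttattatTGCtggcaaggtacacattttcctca
Igkv15-103: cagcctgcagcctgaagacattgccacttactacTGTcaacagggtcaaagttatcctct
Igkv10-96: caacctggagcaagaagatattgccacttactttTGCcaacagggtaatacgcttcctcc
Igkv3-2: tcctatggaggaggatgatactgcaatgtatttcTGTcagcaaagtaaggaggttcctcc
Igkv14-126: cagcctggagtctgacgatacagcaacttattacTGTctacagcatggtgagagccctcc
Ighv1-55: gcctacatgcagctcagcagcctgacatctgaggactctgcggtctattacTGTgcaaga
Ighv1-64: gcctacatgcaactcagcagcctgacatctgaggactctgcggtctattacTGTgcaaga
Ighv1-12: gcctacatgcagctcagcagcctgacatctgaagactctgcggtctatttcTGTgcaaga
Ighv11-2: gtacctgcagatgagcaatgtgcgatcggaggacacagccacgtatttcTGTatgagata

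On the plus strand lie Igkv1-117 (chr6:68121046-68121827), Igkv1-110 (chr6:68270485-68271267), Igkv1-135 (chr6:67609713-67610508), Igkv15-103 (chr6:68437440-68437925), Igkv3-2 (chr6:70698449-70699067) and Igkv14-126 (chr6:67896172-67896642). On the minus strand lie Igkv10-96 (chr6:68631963-68632442), Ighv1-55 (chr12:115208095-115208591), Ighv1-64 (chr12:115507545-115508031), Ighv1-12 (chr12:114615850-114616318) and Ighv11-2 (chr12:114048241-114048812). The transcripts of Igkv1-110 and Igkv1-117 matched at 97.5% of 401 aligned bases, and those of Igkv1-117 and Igkv1-135 at 80.5% of 389. Fractional counts, which arise when reads are divided between genes, occurred in 56 members, and counts of such near copies are uncertain. The library kit was not stated to keep the strand, and 17 members overlap another gene, among them Igkc with Gm30211 and Iglc1, Iglc3 and Iglv1 with 2010309G21Rik.

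The 6 libraries held between 19747265 and 27549838 estimated counts. The label heart matched its markers: the 8 heart muscle genes summed to between 34170 and 48047 CPM (counts scaled to the size of the library, here sizes adjusted by the TMM method), and Myh6, the alpha myosin heavy chain of heart muscle, ranged from 11526 to 20273 CPM. Of the 13708 genes with enough counts to test, edgeR's quasi-likelihood test with Benjamini-Hochberg adjustment called 153 higher and 74 lower after TAC (threshold: adjusted p of 0.05).

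TAC replicate 2 stood apart in immunoglobulin RNA, and the fitted fold changes of the immunoglobulin genes described are given with and without it. In the sham libraries the members summed to 107.5, 117.5 and 85.7 CPM in replicates 1, 2 and 3. In the TAC libraries they summed to 198.0, 16274 and 364.9 CPM. All 3 TAC libraries exceeded all 3 sham libraries, and TAC replicate 2 stood 44.6-fold above the next highest library. As a share of all counts the members took 0.0106%, 0.0116% and 0.00879% in sham and 0.0188%, 1.60% and 0.0387% in TAC. The exact (Clopper-Pearson) 95% interval of that share in TAC replicate 2 ran from 1.5997% to 1.6098%. This and the other intervals cover counting error only, since PCR reads without molecular identifiers are not independent molecules. The ratio of the TAC mean of 5612 ± 9234 CPM (SD, n = 3) to the sham mean of 103.5 ± 16.3 CPM (SD, n = 3) was 54.2, and it was 2.72 without TAC replicate 2. In such bulk RNA, more cells of a type and more RNA per cell cannot be told apart.

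TAC replicate 2 held 94.8% of all member counts of the series. Of the 265 members, 201 had a count in some library and 64 had none, the latter comprising all D and J segments, 18 heavy chain V genes, 12 kappa V genes and Iglc4. The D segments are 10 to 29 bases long and the J segments 38 to 100 bases. Of the 201 members, 195 were highest in TAC replicate 2, 46 had counts in that library alone, and 31 had a count in every library.

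Enough counts for a test were present for 27 members (15 V genes, 11 constant genes and Jchain), and the other 238 were not tested. edgeR's quasi-likelihood test called 0 of the 27 higher and 0 lower in TAC, where 1.12% of all tested genes were called higher and 0.54% lower. The smallest adjusted p was 0.0594 (Igkv8-16) and the largest 0.226 (Igkv1-117). At an unadjusted p under 0.05, 26 of the 27 were higher and 0 were lower, against 16.3% and 9.26% of all genes tested. The Wald test of DESeq2 called 2 members, Ighm and Igkv8-16, higher (7.83% of genes were) and gave no adjusted p for 21. limma-voom called 0, against 0.7% of genes. To be tested a gene needed enough counts in at least 3 libraries, and a member could meet that through the 3 TAC libraries alone. The choice of tested members thus favours those higher in TAC, and these counts and the next ones describe the members tested, not the whole set.

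All 3 TAC values lay above all 3 sham values in 16 of the 27, against 18.4% of all genes tested, and 26 of the 27 were highest in TAC replicate 2, against 21.6%. The exception to the latter was Ighd. Their median log2 fold change was 5.86, and that of all genes tested was 0.03. Without TAC replicate 2 the members' median was 1.30, and 1 member, Ighg2b, was called higher, against 0.145% of genes. Without TAC replicate 1 instead, 36 of 49 tested members were called higher, against 13.2% of genes. The plot of constant genes by library shows how far that replicate lay from the others.

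**Figure D1:**
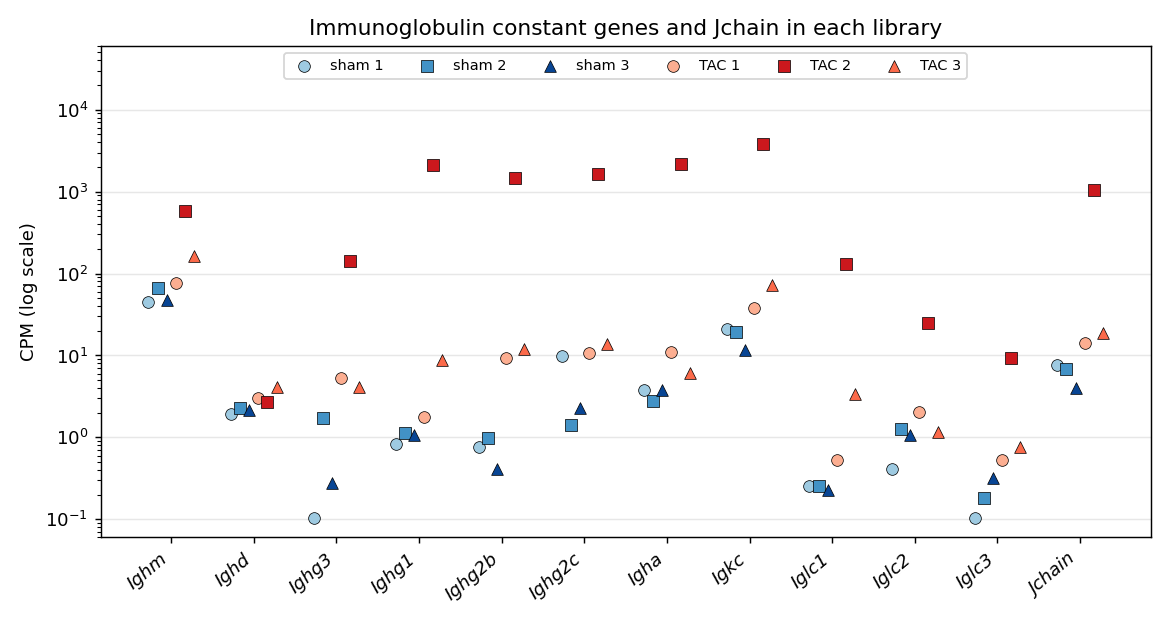
CPM (log scale) of each immunoglobulin constant gene with counts in every library, and of Jchain, 1 point per library, sham in blue and TAC in red. TAC replicate 2 (dark red squares) lies highest for every gene drawn but Ighd, at 3855 CPM for Igkc against 71.9 in TAC replicate 3.

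Ighm, the constant gene of IgM, was the most abundant heavy chain constant gene in every library but TAC replicate 2. Its levels were 44.5, 65.9 and 47.2 CPM in sham replicates 1, 2 and 3. They were 77.5, 585.7 and 164.7 CPM in TAC. The groups did not overlap, and all 3 TAC libraries were above the highest sham library. TAC differed from sham by a log2 fold change of 2.39 (SE 0.65), with an adjusted p of 0.0811 in edgeR's test, and without TAC replicate 2 it was 1.17 (SE 0.32) with an adjusted p of 0.162.

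Ighd, the constant gene of the IgD that naive B cells carry beside IgM, was the 1 tested member that was not highest in TAC replicate 2. It was at 1.95, 2.28 and 2.17 CPM in sham and at 3.01, 2.73 and 4.08 CPM in TAC, from 38 to 96 counts a library. TAC was higher in 3 of 3 libraries, by a log2 fold change of 0.62 (SE 0.25, with an adjusted p of 0.175 in edgeR), and of 0.70 (SE 0.26, with an adjusted p of 0.218) without TAC replicate 2. TAC replicate 2 was the lowest of the TAC libraries. The count of Ighm per count of Ighd was 22.8, 28.9 and 21.7 in sham, 25.7 and 40.3 in TAC replicates 1 and 3, and 214 in TAC replicate 2.

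The 4 IgG genes encode the main switched antibodies of serum, and 2 of them, Ighg1 and Ighg2b, had the largest log2 fold changes of the tested members. Ighg2b rested on 15, 27 and 9 counts in sham and on 228, 33704 and 284 in TAC. Its levels were 0.770, 0.993 and 0.416 CPM in sham and 9.28, 1463 and 12.1 CPM in TAC. Each TAC library was at least several times the highest sham library. TAC differed from sham by a log2 fold change of 9.38 (SE 2.27, with an adjusted p of 0.0678 in edgeR). Without TAC replicate 2 it was 3.82 (SE 0.34) and passed edgeR's test at an adjusted p of 0.0118, where 0.145% of genes were called higher.

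Ighg1 was at 0.821, 1.14 and 1.06 CPM in sham and at 1.75, 2104 and 8.85 CPM in TAC. The groups did not overlap, but TAC replicate 1 lay close to the sham range. TAC differed from sham by a log2 fold change of 9.43 (SE 2.63, with an adjusted p of 0.0841 in edgeR) and 2.35 (SE 0.63, with an adjusted p of 0.160) without TAC replicate 2. Ighg3 had 0.103, 1.73 and 0.277 CPM in sham and 5.33, 140.7 and 4.17 CPM in TAC (difference of 6.02 on the log2 scale, SE 1.62, with an adjusted p of 0.0801 in edgeR). The log2 fold change of Ighg3 without TAC replicate 2 was 2.64 (SE 0.83, with an adjusted p of 0.183). Its sham values rested on 2, 47 and 6 counts. Ighg3, and Ighg2b in the fit with all libraries, needed TAC counts to be tested, a choice that favours higher TAC values.

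Ighg2c had a high value in the sham group. It was at 9.80, 1.40 and 2.26 CPM in sham replicates 1, 2 and 3 and at 10.7, 1621 and 13.9 CPM in TAC. Sham replicate 1, with 191 counts, lay just below TAC replicate 1, with 262. TAC differed from sham by a log2 fold change of 6.96 (SE 2.09, with an adjusted p of 0.0952 in edgeR), and 1.45 (SE 0.72, with an adjusted p of 0.306) without TAC replicate 2. The transcripts of Ighg2b and Ighg2c matched at 84.5% of 1089 aligned bases, and sham replicate 1 was not high in Ighg2b.

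Igha encodes the constant region of IgA, the isotype of mucosal secretions. It was at 3.75, 2.80 and 3.74 CPM in sham and at 11.1, 2176 and 6.08 CPM in TAC, with no overlap between the groups. TAC differed from sham by a log2 fold change of 7.74 (SE 2.23, with an adjusted p of 0.0887 in edgeR), and 1.30 (SE 0.30, with an adjusted p of 0.137) without TAC replicate 2. Ighe, the gene of IgE, had 29 counts in TAC replicate 2 and 0 in the other 5 libraries, where a count of 0 allows up to 3 counts.

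As shares of the heavy chain constant counts of a library, IgM took 72.2%, 86.4% and 82.6% in sham replicates 1, 2 and 3 and 65.3%, 7.24% and 77.0% in TAC. The 4 IgG genes took 18.6%, 6.90% and 7.03% in sham and 22.8%, 65.8% and 18.2% in TAC. IgA took 6.07%, 3.67% and 6.55% in sham and 9.37%, 26.9% and 2.84% in TAC. TAC replicate 2 was thus mostly IgG and IgA, and the other TAC libraries were mostly IgM like the sham libraries. The exact 95% interval of the IgM share was 7.12% to 7.35% in TAC replicate 2, and between 63.5% and 87.9% over the intervals of the other 5 libraries. The groups overlapped in the shares of IgM, IgG and IgA. Means were 80.4% ± 7.40 (SD, n = 3) IgM in sham and 49.9% ± 37.4 (SD, n = 3) in TAC.

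Counts grow with transcript length, and the length-scaled FPKM values gave IgM shares of 65.5%, 82.8% and 78.7% in sham and of 58.3%, 5.42% and 71.7% in TAC. The order of the libraries was therefore the same on both scales. Within IgG, Ighg2b took 1.25%, 1.30% and 0.728% of heavy chain constant counts in sham and 7.82%, 18.1% and 5.65% in TAC, and its share did not overlap between the groups. Ighg2c took 15.9% in sham replicate 1, against 1.83% and 3.96% in the other sham libraries. Ighg1 took 26.0% in TAC replicate 2 and between 1.33% and 4.14% in the other 5 libraries. The plot of isotype shares shows these proportions side by side.

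**Figure D2:**
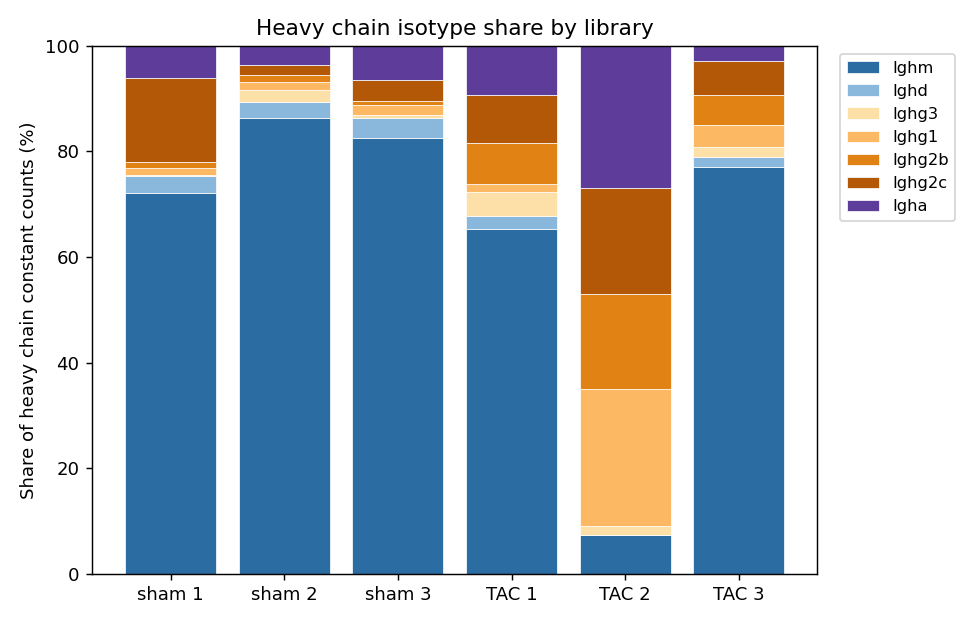
Share of the heavy chain constant counts of each library (vertical axis, percent, from 0 to 100) taken by each constant gene, 1 stacked bar per library, without Ighe. Ighm (dark blue) fills 65.3% to 86.4% of 5 bars and 7.24% of the bar of TAC replicate 2, where the IgG genes (orange shades) and Igha (purple) fill the rest.

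Igkc, the single kappa constant gene, was at 21.0, 19.2 and 11.6 CPM in sham and at 38.4, 3855 and 71.9 CPM in TAC. All 3 TAC libraries were higher than all sham libraries, with a log2 fold change of 6.26 (SE 1.73, with an adjusted p of 0.0833 in edgeR), and of 1.65 (SE 0.32, with an adjusted p of 0.106) without TAC replicate 2. Kappa made up 96.5%, 91.9% and 87.8% of light chain constant counts in sham and 92.5%, 95.9% and 93.2% in TAC, and the groups overlapped. The exact 95% interval in sham replicate 3, which rested on 252 kappa and 35 lambda counts, was 83.4% to 91.4%. By V gene counts in place of constant genes, kappa took 96.1%, 90.8% and 91.4% in sham and 92.0%, 86.5% and 84.4% in TAC.

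Lambda is the minor light chain of the mouse. Iglc1 was at 0.257, 0.257 and 0.231 CPM in sham and at 0.529, 131.3 and 3.36 CPM in TAC (difference of 7.47 on the log2 scale, SE 2.09, with an adjusted p of 0.0846 in edgeR), and without TAC replicate 2 the log2 fold change was 2.91 (SE 0.79, with an adjusted p of 0.160). Iglc2 was at 0.411, 1.25 and 1.06 CPM in sham and at 2.04, 25.1 and 1.15 CPM in TAC (difference of 3.34 on the log2 scale, SE 1.14, with an adjusted p of 0.120), and without TAC replicate 2 the log2 fold change was 0.76 (SE 0.53, with an adjusted p of 0.439). Among the constant genes with counts in every library, Iglc2 alone overlapped between the groups. Iglc3, whose transcript matched that of Iglc2 at 95.4% of 452 aligned bases, ranged from 0.103 to 0.323 CPM in sham and from 0.529 to 9.26 CPM in TAC. Both Iglc1 and Iglc3 could be tested only through their TAC counts, so their direction follows from that choice. Iglc1 took 33.3%, 15.2% and 14.3% of lambda constant counts in sham, from 5, 7 and 5 counts. It took 17.1% in TAC replicate 1 but 79.3% and 63.7% in TAC replicates 2 and 3. Iglv1, the V gene that usually joins to Iglc1, took 96.4% and 96.8% of lambda V counts in TAC replicates 2 and 3 and at most 80.0% in the other 4 libraries. Iglv2 took 0.847% and 1.94% in TAC replicates 2 and 3 and between 20.0% and 33.3% in the other 4, where lambda V counts were 10 to 35.

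Jchain was at 7.59, 6.81 and 3.97 CPM in sham and at 14.3, 1037 and 18.8 CPM in TAC. The groups did not overlap, the log2 fold change was 5.86 (SE 1.66, with an adjusted p of 0.0864 in edgeR), and it was 1.41 (SE 0.28, with an adjusted p of 0.106) without TAC replicate 2. Relative to 100 heavy chain constant counts, Jchain had 12.3, 8.93 and 6.95 counts in sham and 12.1, 12.8 and 8.81 in TAC. The ratio lay between 6.95 and 12.8 in all libraries, and the groups overlapped. Heavy chain constant counts per light chain constant count were 2.84, 3.65 and 4.31 in sham and 2.86, 2.01 and 2.77 in TAC. V counts per constant count, Jchain left out, were 0.196, 0.140 and 0.161 in sham and 0.147, 0.258 and 0.189 in TAC.

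V gene use was read from 319, 370 and 245 V counts in sham and from 578, 71941 and 1294 in TAC. Of the 218 V genes, 49, 72 and 57 had at least 1 count in sham and 105, 186 and 110 in TAC. The number of genes seen grows with the number of counts, and when every library was thinned to 245 V counts the expected numbers were 44.3, 62.1 and 57.0 in sham and 80.0, 84.5 and 61.2 in TAC. TAC replicate 3 then fell below sham replicate 2, and the groups overlapped. The effective number of V genes (inverse Simpson index, the number of equally used genes that would give the same concentration) was 5.67, 21.9 and 11.5 in sham and 42.4, 44.4 and 10.4 in TAC.

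A different kappa V gene led most libraries. Igkv1-117 took 51.4% of the 247 kappa V counts of sham replicate 1 (exact 95% interval 45.0% to 57.8%), Igkv15-103 took 22.4% of 237 in sham replicate 2, and Igkv10-96 took 39.4% of 160 in sham replicate 3. Igkv1-117 led TAC replicate 1 with 10.4% of 400, Igkv1-135 led TAC replicate 2 with 8.31% of 43019, and Igkv3-2 took 41.1% of 841 in TAC replicate 3 (exact 95% interval 37.8% to 44.6%). A single kappa V gene thus held at least 39.4% of the kappa V counts in 2 sham libraries and 1 TAC library. The effective number of kappa V genes was 3.50, 10.95 and 5.59 in sham and 25.0, 30.5 and 5.38 in TAC. The plot of cumulative V shares separates TAC replicates 1 and 2 from the other 4 libraries in the kappa locus.

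**Figure D3:**
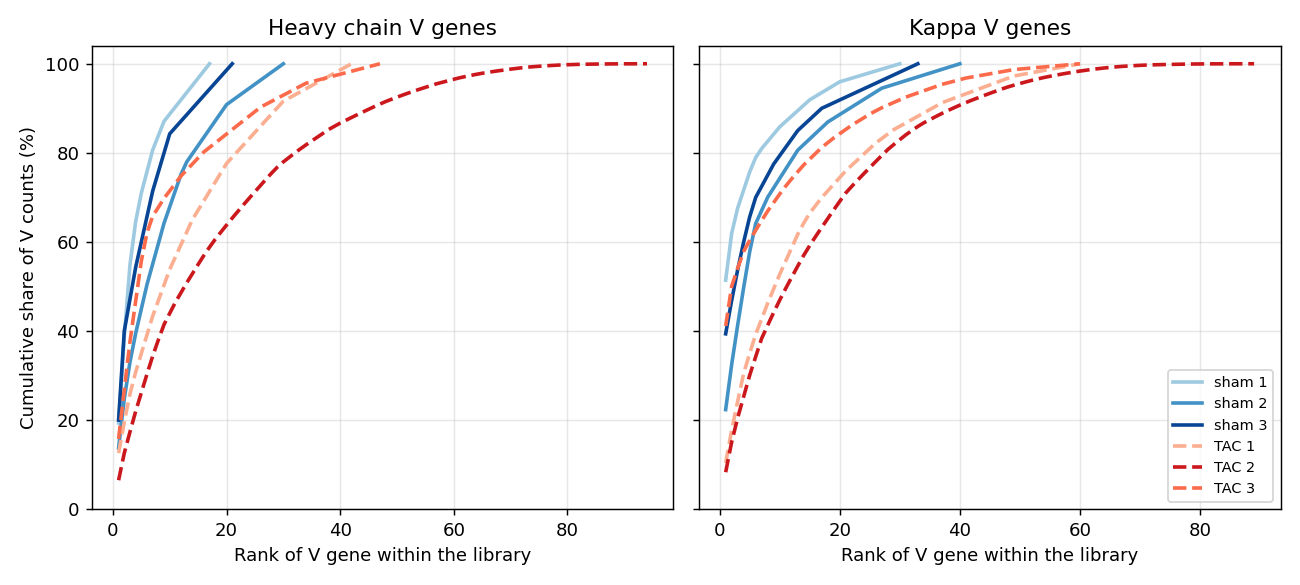
Cumulative share of V counts (vertical axis, percent) against the rank of the V gene within its library (horizontal axis), for heavy chain V genes on the left and kappa V genes on the right, 1 line per library, sham solid and TAC dashed. The kappa lines start at 51.4% in sham replicate 1 and 41.1% in TAC replicate 3 and at 8.31% in TAC replicate 2, and lines with more counts reach further right.

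A V gene that led a library could be low in the others of its group. Igkv1-117 was at 6.52 CPM in sham replicate 1, at 0.257 and 0.508 CPM in the other sham libraries, and at 1.69, 89.2 and 0.781 CPM in TAC. Igkv10-96 was at 2.91 CPM in sham replicate 3 and 0.411 and 0.184 CPM in the other sham libraries, and at 0.163, 126.6 and 3.19 CPM in TAC. Igkv3-2 was at 14.7 CPM in TAC replicate 3 and 37.2 CPM in TAC replicate 2, and between 0.0462 and 0.204 CPM in the other 4. Igkv15-103 was at 0.513, 1.95 and 0.554 CPM in sham, at 78.0 CPM in TAC replicate 2, and at 0.122 and 0.213 CPM in TAC replicates 1 and 3. Without TAC replicate 2, TAC was lower than sham for Igkv15-103 (log2 fold change -2.61, SE 0.85, with an adjusted p of 0.187 in edgeR), Igkv1-117 (-0.96, SE 1.27, with an adjusted p of 0.683) and Ighv1-55 (-0.78, SE 0.51, with an adjusted p of 0.413), and none of the 3 passed the test. With all libraries their log2 fold changes were 4.62, 3.71 and 5.12 in the same order (adjusted p 0.184, 0.226 and 0.140). Each of the 3 led a sham library, and choosing such genes favours lower TAC values without TAC replicate 2. That direction is thus no finding.

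Igkv1-110, unlike its near copy Igkv1-117, was low in every sham library, at 0.205, 0.257 and 0.139 CPM, and stood at 1.20, 101.1 and 1.35 CPM in TAC. The groups did not overlap (log2 fold change 7.36, SE 2.07, with an adjusted p of 0.0850 in edgeR), and without TAC replicate 2 the log2 fold change was 2.59 (SE 0.46, with an adjusted p of 0.0963). Igkv8-16, singled out after its values were seen because its adjusted p was the smallest of the members, had 0, 1 and 0 counts in sham and 26, 195 and 13 in TAC. Both Igkv1-110 and Igkv8-16 could be tested only through their TAC counts, so their direction follows from the choice and is no finding.

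Heavy chain V counts were fewer, at 62, 109 and 70 in sham and 143, 22191 and 298 in TAC. Ighv1-55 led sham replicate 1 with 12 counts (19.4%), equal to Ighv8-8. Ighv14-2 led sham replicate 2 with 15 counts (13.8%), and in sham replicate 3 Ighv1-34 and Ighv1-55 had 14 counts each (20.0%). Ighv11-2 led TAC replicate 1 with 18 counts (12.6%), Ighv1-64 led TAC replicate 2 with 1445 (6.51%), and Ighv1-12 led TAC replicate 3 with 47 (15.8%). Ighv1-55 was at 0.616, 0.441 and 0.646 CPM in sham, 0.407 and 0.255 CPM in TAC replicates 1 and 3, and 58.6 CPM in TAC replicate 2. The effective number of heavy chain V genes was 8.11, 16.03 and 9.28 in sham and 22.5, 35.7 and 13.4 in TAC. The Ighv1 family, with 53 of the 113 genes, took 53.2%, 50.5% and 67.1% of heavy chain V counts in sham and 41.96%, 60.3% and 75.5% in TAC.

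In TAC replicate 2 the counts were spread over 94 heavy chain and 89 kappa V genes, the leading 5 of each locus taking 26.2% and 30.1%. The heavy chain leaders there were Ighv1-64, Ighv1-55, Ighv3-6 (1053 counts), Ighv14-3 (1022) and Ighv1-82 (934). The kappa leaders were Igkv1-135, Igkv10-96, Igkv1-110, Igkv17-121 (2064 counts) and Igkv1-117. Of the heavy chain V genes 32 had counts in that library alone and 2 had counts in all 6 libraries. Of the kappa V genes 13 had counts in that library alone and 15 in all 6. The Ighv1 family, the Igkv4 family at 13.7% and the Igkv1 family at 19.0% were the leading families there. The 56 heavy chain V genes nearest the D segments took 27.4%, 46.8% and 25.7% of counts in sham and 58.0%, 39.8% and 24.5% in TAC, with overlap between the groups.

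Ighv11-2 and Igkv14-126, chosen after their values were seen, are the heavy and light chain V genes of an antibody to phosphatidylcholine known from B-1 cells, a lineage of the body cavities. Ighv11-2 had 1, 0 and 3 counts in sham and 18, 190 and 2 in TAC. Igkv14-126 had 2, 1 and 10 counts in sham and 17, 159 and 4 in TAC. Both had their next highest count after TAC replicate 2 in TAC replicate 1, and their groups overlapped. Ighv12-3 and Igkv4-91 are another such V gene pair of B-1 cells. Ighv12-3 had 0, 0 and 4 counts in sham and 0, 2 and 0 in TAC. Igkv4-91 had 0, 0 and 9 counts in sham and 12, 172 and 0 in TAC. A B-1 cell pattern cannot be read from these few genes.

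Genes that mark B cells were present at low levels in all libraries. Of the 20 B cell identity genes 18 were tested, and edgeR called 0 higher and 0 lower. Of all tested genes 1.12% were called higher and 0.54% lower, so 0 calls among 18 genes say little. The identity genes had a median log2 fold change of 1.014 (0.51 without TAC replicate 2) against 0.03 over all genes. Their summed level was 41.98 to 43.6 CPM in sham and 61.8, 127.8 and 60.6 CPM in TAC. Ms4a1, the gene of the B cell surface protein CD20, was at 0.924, 1.43 and 1.25 CPM in sham and at 3.30, 5.12 and 1.70 CPM in TAC. It was higher in all 3 TAC libraries, with TAC replicate 2 at 1.55-fold above the next highest library, and did not pass (adjusted p of 0.0878 in edgeR). Fcer2a, the low-affinity IgE receptor of mature B cells, was lowest in TAC replicate 2, with 8 counts against 14 to 21 in the other libraries.

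The 2 most abundant identity genes, Ebf1 and Cd37, are also active in other cell types. Ebf1, a transcription factor of B cell commitment, was at 18.5, 17.9 and 15.3 CPM in sham and at 22.4, 25.2 and 22.8 CPM in TAC (difference of 0.44 on the log2 scale, SE 0.13, with an adjusted p of 0.0909 in edgeR). Cd37, a tetraspanin of leukocytes, ranged from 2.94 to 4.57 CPM in sham and from 5.62 to 8.42 CPM in TAC (adjusted p 0.0733). Cd79a and Pou2af1 stood higher in TAC replicate 2: Cd79a, which signals for the surface antibody, was at 17.7 CPM there against 1.44 to 3.42 CPM in the other 5 libraries. Pou2af1, a coactivator of immunoglobulin transcription, was at 23.1 CPM there against 0.462 to 1.83 CPM.

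The 12 plasma cell genes were all highest in TAC replicate 2, as were 21.6% of all tested genes. Of the 10 plasma cell genes tested, edgeR called 0 higher and 0 lower, against 1.12% and 0.54% of all genes. Their median log2 fold change was 0.89, or 0.45 without TAC replicate 2. The 12 genes summed to 228.4, 228.5 and 242.0 CPM in sham and to 262.7, 581.8 and 398.6 CPM in TAC. Mzb1, which helps immunoglobulin assembly in the endoplasmic reticulum, was at 0.616, 0.589 and 0.785 CPM in sham and at 0.896, 52.0 and 2.08 CPM in TAC. TAC replicate 2 was 25.0-fold above the next highest library (edgeR adjusted p 0.100). Derl3, a factor in the degradation of misfolded proteins of the endoplasmic reticulum, had 3, 9 and 4 counts in sham and 1, 332 and 9 in TAC. Most of the summed CPM came from Xbp1 and Txndc5, which many cell types express.

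Xbp1, the transcription factor of the secretory programme, was at 68.4, 78.9 and 76.2 CPM in sham and at 92.2, 200.3 and 163.1 CPM in TAC (difference of 1.03 on the log2 scale, SE 0.25, with an adjusted p of 0.0696 in edgeR). Txndc5, a disulfide isomerase, ranged from 84.1 to 88.6 CPM in sham and from 101.2 to 154.9 CPM in TAC (adjusted p 0.0780). Prdm1 and Irf4, transcription factors of plasma cell formation, overlapped between the groups, at 9.16 and 23.2 CPM in TAC replicate 2 and at 1.87 to 8.59 CPM over both genes and the other libraries. The plot of B and plasma cell genes sets these side by side.

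**Figure D4:**
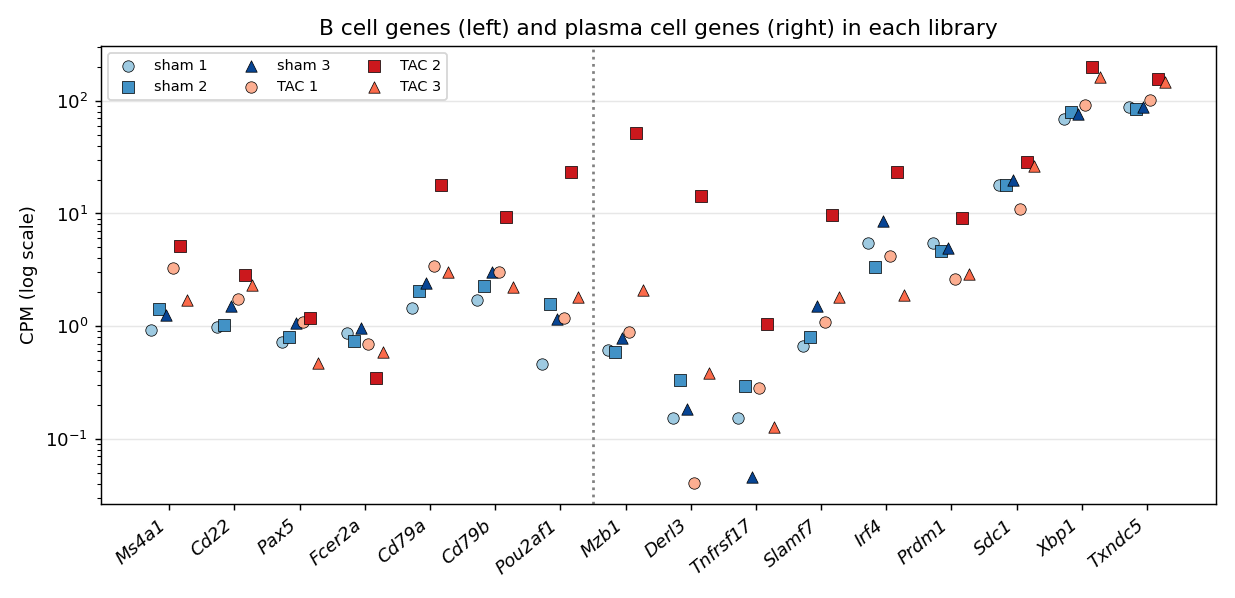
CPM (log scale) of B cell genes, left of the dotted line, and plasma cell genes, right of it, 1 point per library, sham in blue and TAC in red. TAC replicate 2 (dark red squares) is highest for each gene drawn but Fcer2a, by 25.0-fold over the next library for Mzb1 and by 1.55-fold for Ms4a1, and genes were chosen for drawing after their values were seen.

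Genes of recombination were near 0. None of the 6 genes of B cell precursors and rearrangement (Rag1, Rag2, Dntt, Igll1, Vpreb1 and Vpreb2) had enough counts to be tested, and their summed level was at most 0.163 CPM. Of the 7 germinal centre and switching genes, 4 were tested, 0 were called higher, and 1, Ung, was called lower. Over all tested genes 1.12% were called higher and 0.54% lower. Ung, a uracil glycosylase that acts in switching and in DNA repair of all cells, was at 15.6, 14.1 and 15.7 CPM in sham and at 9.24, 6.29 and 7.32 CPM in TAC. All 3 TAC libraries were below sham (log2 fold change -0.99, SE 0.17, with an adjusted p of 0.0379 in edgeR), and without TAC replicate 2 it no longer passed (-0.90, SE 0.16, with an adjusted p of 0.0986). Only 0.116% of all genes were called lower in that smaller fit.

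Of the 13 genes of B and plasma cell survival and homing, 7 were tested and edgeR called 0 (median log2 fold change 0.80, or 0.42 without TAC replicate 2). It called 1.12% of all tested genes higher and 0.54% lower. Cxcl12, a chemokine that retains plasma cells and is made by stroma, was at 369.5, 306.7 and 344.7 CPM in sham and at 347.3, 546.0 and 548.8 CPM in TAC, with overlap (edgeR adjusted p 0.165). Cxcl13, the chemokine that draws B cells into follicles, was at 1.13, 1.80 and 1.34 CPM in sham and at 9.32, 55.0 and 5.02 CPM in TAC. The groups did not overlap, and TAC replicate 2 was 5.89-fold above the next library (log2 fold change 3.997, SE 0.89, with an adjusted p of 0.0627 in edgeR). Without that library the log2 fold change was 2.29 (SE 0.35, with an adjusted p of 0.0760).

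The receptors that bind antibodies held both genes of the pathway that were called higher. Of the 11 Fc receptor and antibody transport genes, 9 were tested, 2 were called higher and 0 lower, against 1.12% and 0.54% of all genes. The median log2 fold change of the 9 was 1.18. Fcgr2b, the inhibitory IgG receptor, was at 18.7, 18.0 and 19.2 CPM in sham and at 31.7, 59.3 and 47.2 CPM in TAC. Every TAC library was above every sham library (log2 fold change 1.30, SE 0.21, with an adjusted p of 0.0336 in edgeR). Pigr, which carries polymeric IgA and IgM across epithelia, rested on 0, 4 and 2 counts in sham and 62, 64 and 18 in TAC (log2 fold change 4.47, SE 0.78, with an adjusted p of 0.0379 in edgeR), higher in 3 of 3 TAC libraries. With so few sham counts, Pigr could be tested only through its TAC counts. Without TAC replicate 2 the log2 fold changes were 1.05 (SE 0.18) for Fcgr2b and 4.15 (SE 0.86) for Pigr, and neither passed with 1 library fewer (adjusted p 0.0914 and 0.123). Only 0.145% of all genes were called higher in that smaller fit. Fcgrt, which returns IgG from endosomes, was at 113.2, 119.3 and 125.5 CPM in sham and at 122.1, 91.8 and 76.1 CPM in TAC, with overlap (adjusted p 0.300).

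Markers of other blood and tissue cells were read beside the immunoglobulin level, and their part in it was not tested. Over all tested genes 1.12% were called higher and 0.54% lower. The 9 neutrophil genes summed to 8.40, 2.97 and 5.31 CPM in sham and to 26.1, 159.7 and 133.6 CPM in TAC, and edgeR called 3 of 8 tested higher (S100a8, S100a9 and Mmp8). The 8 macrophage genes summed to 578.0 to 685.9 CPM in sham and to 799.8, 1212 and 1051 CPM in TAC, with 3 of 8 called higher (Ccr2, Cd68 and Mrc1). Within the neutrophil list the libraries differed by gene. The granule genes Ngp, Ltf and Camp, named after their values were seen, were 14.5-, 12.5- and 10.6-fold higher in TAC replicate 2 than in any other library. S100a8 and Mmp8 were 1.28- and 1.05-fold higher there, and S100a9 was highest in TAC replicate 3. The 6 red cell genes summed to 938.4, 1634 and 1036 CPM in sham and to 3484, 1925 and 2334 CPM in TAC, with 2 called higher (Slc4a1 and Alas2), and none of the 6 was highest in TAC replicate 2. None of these 8 called genes passed without TAC replicate 2 (adjusted p 0.0888 to 0.125), where only 0.145% of all genes were called higher. Their log2 fold changes were then 1.05 to 5.08, against 1.36 to 5.49 with all libraries. Among them Mmp8 and Slc4a1 could be tested only through their TAC counts. S100a8, with 27, 5 and 7 counts in sham, also needed its TAC counts to be tested.

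Of the 12 T cell genes 9 were tested and edgeR called 0, and they summed to 23.0 to 27.0 CPM in sham and to 29.3, 34.6 and 30.2 CPM in TAC. The T cell receptor constant genes, added after the values were seen, summed to 2.001, 2.35 and 2.45 CPM in sham and to 3.26, 6.03 and 5.02 CPM in TAC. The 9 lymph node and thymus genes summed to 36.4 to 45.9 CPM in sham and to 68.6, 117.2 and 51.3 CPM in TAC. Of them Cxcl13 gave 55.0 CPM in TAC replicate 2, the thymus genes Foxn1 and Psmb11 were at 0 in all libraries, and Glycam1, a marker of lymph node vessels, was at 0 in TAC replicate 2. The 7 fat cell genes summed to 371.8 to 764.2 CPM in sham and to 397.9, 447.3 and 173.1 CPM in TAC. The 6 lung epithelium genes summed to at most 6.08 CPM, with Sftpd and Scgb1a1 at 0 in all libraries. No gene of these 3 tissue lists was called. With 1.12% of all tested genes called higher and 0.54% lower, 0 calls in short lists say little.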

How the data were processed

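RNA of 6 hearts (3 sham, 3 TAC) was sequenced after Trizol extraction and oligo(dT) enrichment, per the labels' protocols. The authors deposited 1 table, which gives each gene an estimated count per library, per the file headers. The same table holds deposited FPKM values, which are scaled by gene length and depth. Bowtie2 2.2.8, HISAT2, StringTie 1.3.1 and DESeq2 with GRCm38 are named in the submitters' processing notes, without saying which tool made which column. How reads of rearranged V genes or of near copies were assigned is not given in these notes, and this can move counts between V genes.

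Biotypes, symbols and transcripts came from GENCODE on GRCm38, which matched 22255 of 22298 identifiers. The deposited estimated counts were rounded. The quasi-likelihood test of edgeR 4.0.16 (R 4.3.3) was two-sided, used TMM factors and genes kept by filterByExpr at minimum count 10, with Benjamini-Hochberg adjustment over all 13708 genes tested. The SE is approximate: the log2 fold change over the root of its F statistic. Depth was 19747265 to 27549838 counts per library, and heavy chain V shares in sham rest on 62 to 109 counts. Shares carry exact Clopper-Pearson intervals at 95%. V gene numbers were also computed after thinning to a common V count. Groups and replicate numbers came from the sample titles. Only the edgeR fit was tested on simulated counts. These had a common dispersion for all genes, a setting unlike a single library far above the rest. Alternatives were DESeq2 1.42.0 size factors and Wald test, limma 3.58.1 (voom), no filter, no mitochondrially encoded genes, the replicate number as a block, each library left out in turn, and, added after seeing the data, limma-trend on log2 of FPKM plus 1.

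The members and the gene lists were chosen with earlier results of these data known. Named genes were all constant genes and Jchain, the 5 V genes of highest mean CPM per locus and the leading V gene of each library, and of each pathway list up to 4 called genes or, with none called, the 2 most abundant. In lists of other cell types the called genes were named by rule. Uncalled genes of those lists, such as Myh6, Ngp and Foxn1, were named outside that rule. Other genes were chosen after their values were seen, among them Ms4a1, Cd79a, Mzb1 and the other B and plasma cell genes. Results for some list members are not reported here.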

Additional observations from a re-analysis of the deposited data

How the results depend on the processing

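Of the immunoglobulin genes, 0 were called lower under every setting run. The count called higher was 0 with DESeq2 size factors, without the filter, without mitochondrially encoded genes, with limma-voom and with limma-trend on FPKM. In those fits 0.513% to 0.963% of all genes were called higher. The members called higher numbered 2 with DESeq2's Wald test (7.83% of all genes), and between 0 and 36 with a library left out. They numbered 36 without TAC replicate 1 (13.2% of genes), 1 without TAC replicate 2 (Ighg2b, 0.145%) and 1 without TAC replicate 3 (Igkv8-16, 0.59%). Without any 1 sham library the number was 0, but only 0.0287% to 0.0503% of all genes were then called higher, so it says little about the members. With the replicate number as a block, where 0.35% of genes were called higher, the members called higher numbered 6 (Ighg3, Igkv12-44, Igkv3-4, Igkv5-39, Igkv6-32 and Igkv8-16). All 6 needed their TAC counts to be tested, and Igkv6-32 and Igkv8-16 had 0, 1 and 0 counts in sham. That choice favours higher TAC values, so the 6 cannot be set against the share of all genes. Over all genes, same-numbered libraries did not deviate together (correlations 0.011, -0.111 and -0.024). Such correlations cannot decide whether the number marks a pairing that affects some genes. The other pathway genes called in either direction numbered 3 (Pigr, Fcgr2b and Ung), where 1.12% of all genes were called higher and 0.54% lower. They numbered 0 with the replicate block (0.35% of genes higher, 0.19% lower) and 17 with DESeq2's Wald test (7.83% and 4.37%). With limma-trend on FPKM they numbered 1 (0.513% and 0.574%). With a library left out they numbered 0 to 23. The number was 23 without TAC replicate 1 (13.2% of genes) and 0 without TAC replicate 2 (0.145%) or any sham library (0.0287% to 0.0503%). The pathway counts thus moved with the share of all genes called, and their swings say little about the pathway genes in particular. The log2 ratio of summed immunoglobulin CPM was 5.76 and ranged from 1.44 (without TAC replicate 2) to 6.33. The TAC minus sham difference in kappa share was 1.81 percentage points, -5.16 by V genes, and between -0.32 (without sham replicate 3) and 4.01 (without sham replicate 1) with a library left out. The difference in IgM share ranged from -44.1 to -9.24 percentage points (-9.24 without TAC replicate 2). The difference in the number of V genes seen was 74.3 and fell to 20.7 after thinning. Without TAC replicate 2 the log2 fold changes of Ighv1-55 (-0.78 to 5.71 over the libraries left out), Igkv1-117 (-0.96 to 6.34) and Igkv15-103 (-2.61 to 5.60) changed sign. Of 448 values of 36 named genes over 13 settings, 339 kept their direction and side of the threshold, 30 passed it anew, 76 no longer passed or lost it and 3 changed sign. The cause of these changes was not tested. Sham V gene shares rest on 62 to 109 heavy chain, 160 to 247 kappa and 10 to 24 lambda V counts, and differences of a few counts are not detectable at this depth.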

Other observations

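Other genes also stood apart in single libraries. Genes with at least 50 counts in a library and a CPM at least 8-fold above every other library numbered 0 in each sham library, 1 in TAC replicate 1 (Gm4841), 155 in TAC replicate 2 and 11 in TAC replicate 3. In TAC replicate 2, 139 of the 155 were immunoglobulin genes and 16 were others, while none of the 11 of TAC replicate 3, led by Timp1 and Spp1, was a member. This rule was chosen after the values were seen and carries no test.

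Among the 16 were the plasma cell genes Mzb1, Derl3 and Bhlha15 and the neutrophil granule genes Ngp, Ltf and Camp. Slpi, a secreted inhibitor of neutrophil elastase, was at 227.4 CPM in TAC replicate 2, 59.4-fold above the next library. Marco, a scavenger receptor of macrophages, was at 29.7 CPM there and 33.7-fold above the next, and Cd5l, a secreted macrophage protein that associates with IgM, at 10.7 CPM and 15.4-fold. Cyp1a1, a target of the aryl hydrocarbon receptor, was at 155.1 CPM and 9.40-fold. Bhlha15, a transcription factor of secretory cells, was at 6.38 CPM and 34.5-fold.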
